A study of Mus musculus with 2 samples.

Results

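Nucleolar ribosome biogenesis factors are described here: the proteins and guide-RNA particles that cut, modify and fold ribosomal RNA and assemble it with ribosomal proteins. The genes were chosen by a rule on gene names, set with earlier results of these data known. They comprise symbols made of Nop, Utp, Rrp, Noc or Nol followed by a digit, with Npm1, Ncl, Fbl, Dkc1, Gar1, Nhp2, Bop1, Pes1, Wdr12, Nolc1, Gnl3, Rrs1, Bysl, Ebna1bp2 and Emg1 added. This gave 56 genes of the RefSeq gene table. Of these, 54 were among the 20655 genes with a named probe, and 44 were well above background on both arrays, among 10223 such genes in all.

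SoNar is a fluorescent protein whose excitation shifts with the NADH/NAD+ balance of the cytosol. Fetal liver blood cells of E13.5 mice were sorted by the ratio of its fluorescence excited at 405 nm and 488 nm. The SoNar-high cells (strain labelled C57BL/6) and the SoNar-low cells (strain labelled C57BL) were each hybridised to 1 Agilent whole-genome array in 1 colour. The question addressed is how expression differs between the high-ratio and the low-ratio sort. With 1 array per group there is no replicate error and no test, and every value describes these 2 RNA samples.

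Ribosome synthesis starts in the nucleolus, where RNA polymerase I copies a long precursor of the ribosomal RNAs. Box C/D and box H/ACA small nucleolar ribonucleoproteins (snoRNPs) methylate and pseudouridylate the precursor, the small subunit processome folds and cuts its first segment, and a separate set of factors matures the large subunit. The supply of ribosomes matters in fetal liver because early erythroid progenitors divide and make protein fast, whereas maturing erythroblasts shut this machinery down. Inherited defects of ribosome synthesis in humans cause anaemia (Diamond-Blackfan anaemia). Mutations of DKC1, NHP2 and NOP10, whose products also bind telomerase RNA, cause dyskeratosis congenita with bone marrow failure.

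In the RNA of SoNar-high cells, 4 nucleolar factors were at least 2-fold lower and none at least 2-fold higher. The 4 were Nop58, a core protein of box C/D snoRNPs, Npm1, an abundant nucleolar chaperone, and Nhp2 and Dkc1, both of box H/ACA snoRNPs. They are 9.09% of the 44 measured members, against 4.44% of all measured genes at least 2-fold lower and 5.28% at least 2-fold higher. The remaining 40 members lay within 2-fold. Of the 22 members between the lower and upper quartile of member signal, none was at least 2-fold lower. Among all 3782 measured genes in that signal range, 4.81% were. Differences are given on the log2 scale, as SoNar-high minus SoNar-low after each array was divided by its 75th percentile of signal, so that negative values mean a lower level in SoNar-high cells.

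The printed sequences show the DNA before the start of the box C/D genes Nop58 and Nop56, of the box H/ACA genes Nhp2 and Dkc1, and of Nol11, a small subunit factor that carries the letters CACGTG. They show which short motifs stand before the members with the lowest values and which do not. Each is printed 5′ to 3′ on the strand of the gene, from RefSeq, build GRCm38.p6, up to the start of the gene's own span. Capitals mark motif letters on either strand. The stretches are chr1:59684756-59684960 (plus strand, Nop58), chr2:130274162-130274366 (plus strand, Nop56), chr11:51619523-51619772 (plus strand, Nhp2), chrX:75095604-75095853 (plus strand, Dkc1) and chr11:107189382-107189631 (minus strand, Nol11).
Nop58: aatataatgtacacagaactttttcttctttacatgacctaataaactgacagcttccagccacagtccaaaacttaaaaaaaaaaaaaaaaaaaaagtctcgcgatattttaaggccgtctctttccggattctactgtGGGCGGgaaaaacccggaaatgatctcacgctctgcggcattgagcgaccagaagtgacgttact
Nop56: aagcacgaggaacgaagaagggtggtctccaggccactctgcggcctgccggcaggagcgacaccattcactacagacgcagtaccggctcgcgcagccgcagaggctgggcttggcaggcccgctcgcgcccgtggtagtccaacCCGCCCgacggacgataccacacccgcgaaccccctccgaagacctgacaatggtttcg
Nhp2: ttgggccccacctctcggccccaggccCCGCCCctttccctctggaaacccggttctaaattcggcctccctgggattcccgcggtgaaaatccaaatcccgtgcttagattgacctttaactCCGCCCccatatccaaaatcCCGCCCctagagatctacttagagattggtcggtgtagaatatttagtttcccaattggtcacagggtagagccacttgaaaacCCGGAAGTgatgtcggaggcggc
Dkc1: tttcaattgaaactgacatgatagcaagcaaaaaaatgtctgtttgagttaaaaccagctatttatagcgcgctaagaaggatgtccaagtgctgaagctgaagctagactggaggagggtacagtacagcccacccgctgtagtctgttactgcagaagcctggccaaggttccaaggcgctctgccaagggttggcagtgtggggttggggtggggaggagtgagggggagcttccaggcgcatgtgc
Nol11: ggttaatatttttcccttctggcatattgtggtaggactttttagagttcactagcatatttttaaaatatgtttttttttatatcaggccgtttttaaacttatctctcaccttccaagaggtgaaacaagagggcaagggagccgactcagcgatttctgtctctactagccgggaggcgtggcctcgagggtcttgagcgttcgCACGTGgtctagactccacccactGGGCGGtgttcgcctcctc

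The motifs were searched on both strands in the 250 bases before each start in the RefSeq promoter table, which held 43 of the 56 members. It had no entry for Npm1, Fbl or Bop1. The E-box CACGTG, the site of MYC-MAX and related factors, was present before 6 of the 43 members (14.0%), against 6.86% of all genes with a promoter, and before 3 of the 35 measured members (8.57%), against 10.4% of measured genes. The 6 were Nol11, Nop2, Rrp7a, Utp14b, Utp18 and Utp25, of which the first 3 were measured on both arrays. None of Nop58, Nop56, Nhp2 and Dkc1 held it. The GC box GGGCGG was present before 32 members (74.4%), against 35.4% of all genes with a promoter, and before 26 measured members (74.3%), against 62.5% of measured genes. Nhp2 held it at 3 places and Nop58 and Nop56 at 1 each, whereas Dkc1 held none of the motifs searched. The ETS motif CCGGAAGT was present before 6 members (14.0%), against 3.23% of all genes with a promoter, and before 5 measured members (14.3%), against 6.93% of measured genes. It lay 23 to 16 bases before the start of Nhp2. The YY1 motif AAGATGGCG stood before none, against 1.47% of measured genes. The 26 measured members with a GC box had a median difference of -0.18 and the 9 without one -0.21. The 3 with CACGTG had a median of -0.040 and the 32 without it -0.20, and the 5 with CCGGAAGT had -0.057 and the 30 without it -0.20. All motifs are given as a description of letters, not of bound sites.

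**Figure D1:**
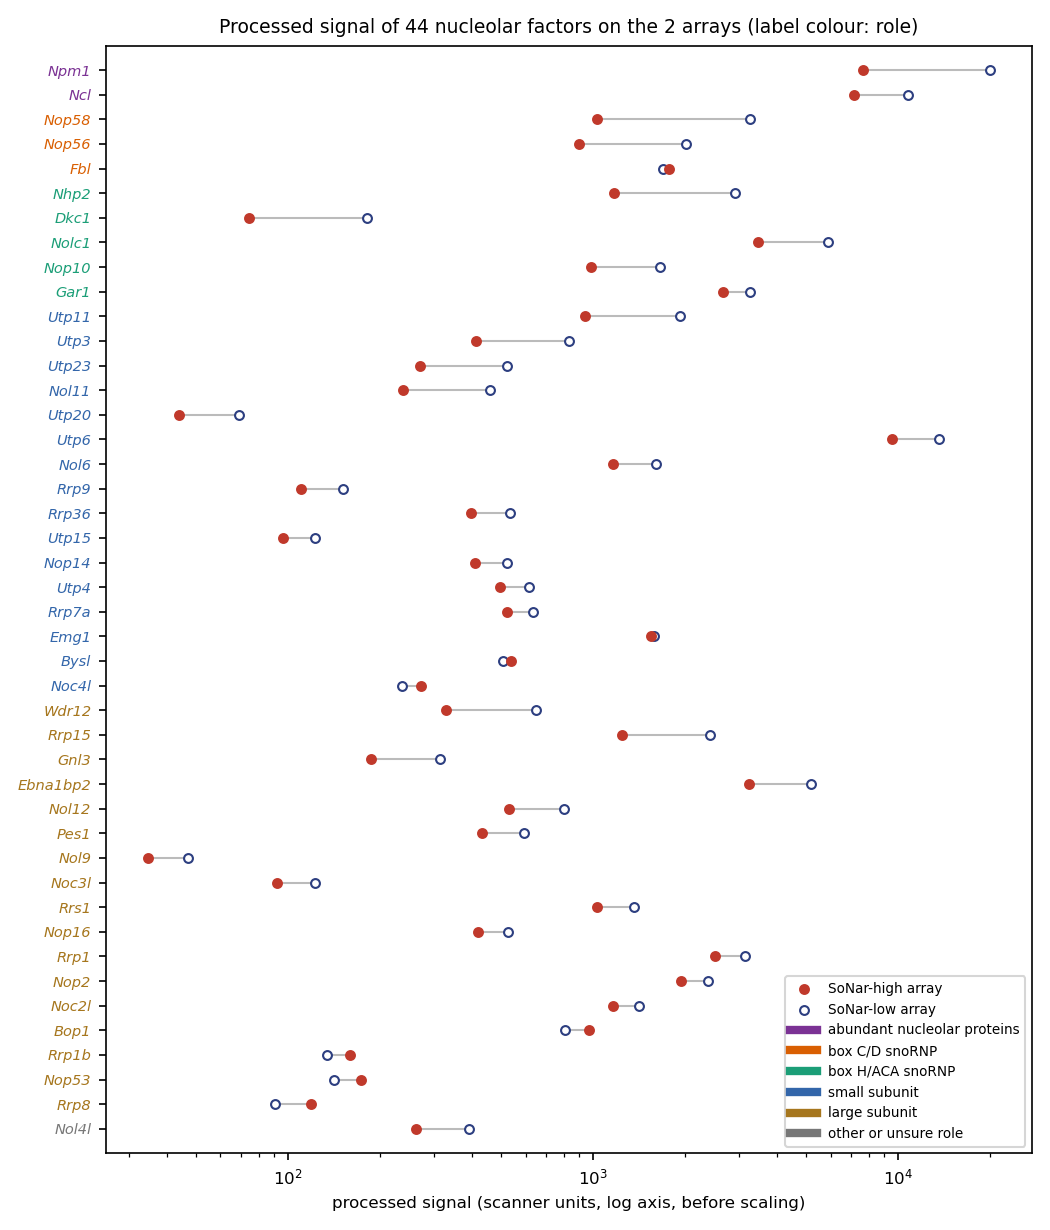
Processed signal of the 44 measured nucleolar factors on the SoNar-high array (filled red) and the SoNar-low array (open blue), on a log axis in scanner units before scaling, with 1 probe per gene and gene names coloured by role. Nop58 (1026 against 3254) shows the widest gap, and Fbl (1766 against 1699) and Emg1 (1550 against 1586) show nearly coincident points.

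The arrays had a 75th percentile of 186.5 units (first, SoNar-high) and 222.2 units (second, SoNar-low), so equal processed signals correspond to a higher scaled level on the SoNar-high array. Spots well above background made up 49.4% of the first array and 42.4% of the second. Probes printed 10 times on each array gave a spot-to-spot SD of 0.16 (median over 213 probes) for a log2 difference between single spots. That figure was 0.17 for the 122 of them dimmer than the median member probe and 0.14 for the 91 brighter ones. It covers spot-to-spot error only.

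Marker lists of other cells moved between the same arrays. Red cell membrane genes were at least 2-fold higher in SoNar-high cells in 7 of 7 measured cases (median 1.70, summed signal 8457 against 3414 units), with Rhag and Sptb not measured on both arrays. Macrophage genes were higher in 7 of 8 (2.98, 18698 against 8515; Cd68 and Timd4 not measured), hepatocyte genes in 5 of 6 (1.95, 20943 against 11238; Apoa1 and Ttr not measured) and endothelial genes in 4 of 5 (2.56, 3747 against 1011; Tek not measured). Stem and progenitor genes were at least 2-fold lower in 3 of 9 (median -0.91, 9473 against 20550 units) and B lymphoid genes in 5 of 8 (-1.54, 4365 against 15504; Rag2 not measured). Of 10 proliferation genes none passed 2-fold, and their median was -0.30 (30495 against 47240). The part of these lists in the values below was not tested. In bulk RNA, fewer cells of a type and less RNA per cell cannot be told apart.

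Of the 44 measured members, 36 (81.8%) had a difference below 0, against 55.8% of all measured genes. Their median was -0.20, against -0.082 for all genes. Differences also varied with brightness. The 3782 genes whose mean signal lay between the lower and upper quartile of the members had a median of -0.19 and 63.1% below 0, and the 22 members in that range had a median of -0.19 and 18 below 0. At a lower threshold of 1.5-fold, 11 members (25%) were lower and 1 (2.27%) was higher, against 17.7% and 13.8% of all genes. Of the 22 members in the matched signal range, 6 (27.3%) were lower and none higher, against 21.6% and 10.7% of genes of like signal. Under the other scalings and corrections, between 0 and 5 members were at least 1.5-fold higher. The lower count moved too. Of the 11, Nop58, Npm1, Nhp2, Dkc1 and Nop56 stayed at least 1.5-fold lower under all 6. Utp11 (up to -0.57), Utp3 (-0.57), Utp23 (-0.52), Nol11 (-0.52), Rrp15 (-0.49) and Wdr12 (-0.40) each fell short under at least 1.

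**Figure D2:**
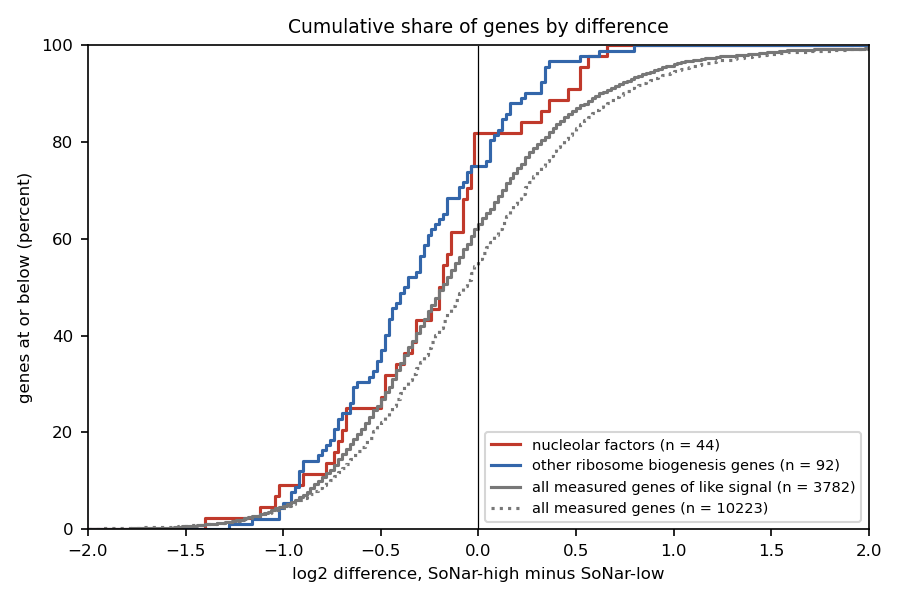
Cumulative share of genes (percent, vertical) at or below each log2 difference (horizontal) for the 44 nucleolar factors, 92 other ribosome biogenesis genes, the 3782 genes of like signal and all 10223 measured genes. The curve of the nucleolar factors lies above that of genes of like signal at -1 (9.09% against 4.81%) and at -0.68 (25% against 16.6%). It runs close to that curve from about -0.52 to -0.20 and reaches 81.8% at 0, where the genes of like signal stand at 63.1%. The genes of like signal span only the lower to upper quartile of member signal, whereas the nucleolar factor curve holds all 44 members.

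The scaling sets where 0 lies. With the 75th percentile taken over probes detected on both arrays, the median of all genes moved by 0.18, 24 of 44 members were below 0, and only Nop58 stayed at least 2-fold lower. That scaling also changed the split over all genes from 540 higher and 454 lower (45.7% of calls lower) to 817 and 227 (21.7% lower), and a loess fit on mean signal changed it to 649 and 347 (34.8% lower). Relative to the median of all genes, 29 members (65.9%) were lower under both percentile scalings, a count that a constant shift cannot change, and 27 (61.4%) after loess. The count was 26 (59.1%) after quantile normalization and in the deposited value table, and 30 (68.2%) after normexp. The sign held under all 6 other scalings and corrections for 23 members below 0 and 8 above 0, and it turned under at least 1 of them for 13. The 6 are not separate checks. Both scalings on detected probes add a constant to every value (0.18 and 0.054), so they only move where 0 lies. The deposited value table nearly repeats quantile normalization, with member medians of -0.145 and -0.146. Nop58 alone was at least 2-fold lower under all 6, and after normexp background correction Nop56 (-1.07) passed 2-fold while Nhp2 (-0.95) and Dkc1 (-0.64) did not. Nop58, Nhp2 and Dkc1 had 1 probe each, so every scaling reuses the same probe and none shows whether another probe would give the same value.

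Npm1 encodes nucleophosmin, a histone and ribosome chaperone of the outer nucleolus. Its brightest probe read 7689 units in SoNar-high and 19967 in SoNar-low cells, which is 2.18-fold lower (-1.12). The gene had 5 measured probes, and they did not give the same answer. The other probe named by the same transcript, NM_008722, gave -0.82, and the probes named by NM_001252261 gave -0.73, -0.19 and 0.0047. The probe at 0.0047 read 3572 units against 4242, so the 2-fold call rests on 1 of the 5 probes. Npm1 has processed copies elsewhere in the genome that its probes may also bind. Ncl, nucleolin, which binds ribosomal DNA and the RNA precursor, read 7167 against 10755 units (-0.33), and its dimmer probe gave -0.65.

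Box C/D snoRNPs place methyl groups on ribose and share 3 proteins measured here. Nop58 read 1026 units in SoNar-high and 3254 in SoNar-low cells, 2.66-fold lower (-1.41), and stayed between -1.36 and -1.19 under the other scalings and corrections. Nop56, its partner and paralogue, read 896 against 2019 units (-0.92), while its dimmer probe, at 464 against 644 units, gave -0.22. Fbl, fibrillarin, the methyltransferase of the particle, read 1766 against 1699 units, a difference of 0.31 in the opposite direction. Fbl kept that sign under every other scaling and correction (0.27 to 0.53).

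Box H/ACA snoRNPs convert uridine to pseudouridine, and their core proteins also bind telomerase RNA. All 5 measured genes of this group, which counts the snoRNP chaperone Nolc1 with the core proteins, were below 0. Their median of -0.50 is the value of Nolc1. Nhp2, an RNA-binding core protein, read 1172 units against 2907, 2.08-fold lower (-1.06). Dkc1, dyskerin, the pseudouridine synthase, read 74.6 against 180.8 units, 2.03-fold lower (-1.02). Both lay close to the 2-fold line: Nhp2 ranged from -1.004 to -0.84 and Dkc1 from -1.13 to -0.64 under the other scalings and corrections. Nop10, the smallest core protein, read 985 against 1659 units (-0.50). Nolc1, the snoRNP chaperone Nopp140, read 3482 against 5883 units (-0.50), with -0.0024 at its dimmer probe. Gar1 read 2673 against 3269 units, a difference of -0.038 that was above 0 under 5 of the 6 other scalings and corrections.

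**Figure D3:**
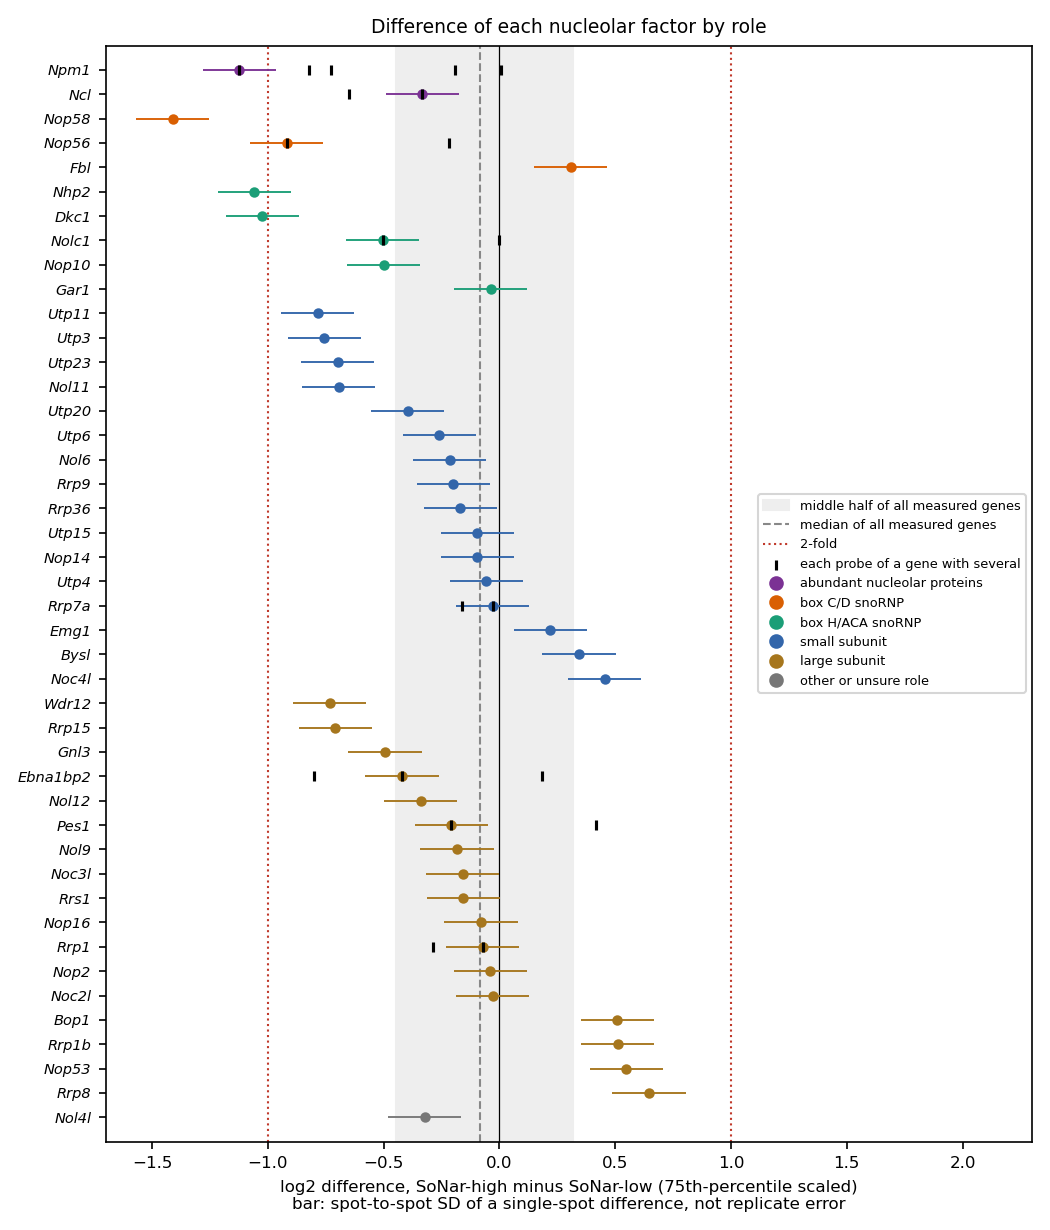
Log2 difference (SoNar-high minus SoNar-low, horizontal) of each measured nucleolar factor, ordered and coloured by role, with bars of 0.16 for the spot-to-spot SD, black ticks for each probe of genes with several, a grey band for the middle 50% of all measured genes and dotted lines at 2-fold. Nop58, Npm1, Nhp2 and Dkc1 lie past the lower line, and Rrp8 at 0.65 is the highest.

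The small subunit group held 24 genes, of which 16 were measured. None passed 2-fold, 13 were below 0, and the median was -0.18. The lowest were Utp11 (940 against 1929 units, -0.79), Utp3 (412 against 830, -0.76), Utp23 (271 against 524, -0.70) and Nol11 (239 against 460, -0.69), and each of these 4 was at least 1.5-fold lower. Utp11, Utp3 and Nol11 belong to the small subunit processome, and Utp23 acts in release of a box H/ACA guide RNA. All 4 stayed below 0 under the other scalings and corrections, at -0.52 or lower.

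The other small subunit members were closer to 0. Utp20 had -0.40, Utp6 -0.26, Nol6 -0.22, Rrp9 (the U3-specific protein) -0.20 and Rrp36 -0.17. Utp15 had -0.096, Nop14 -0.095, Utp4 -0.057 and Rrp7a -0.029, values smaller than the spot-to-spot SD. Of the 13 below 0, 6 changed sign under at least 1 of the 6 other scalings and corrections: Rrp7a under 6, Nop14 under 5, Utp4 under 4, Rrp36 under 2, and Utp6 and Utp15 under 1 each. The 3 small subunit members above 0 were Noc4l (272 against 236 units, 0.45), the partner of Nop14, Bysl (539 against 506, 0.34), which acts in late maturation, and Emg1 (0.22), the methyltransferase of a pseudouridine in the small subunit RNA. These 3 kept their sign under the other scalings and corrections.

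The large subunit group held 18 genes, of which 17 were measured. None passed 2-fold, 13 were below 0, and the median was -0.16, a value that turned positive under 4 of the 6 other scalings and corrections (up to 0.056). The lowest were Wdr12 (328 against 650 units, -0.73) and Rrp15 (1244 against 2422, -0.71). The highest were Rrp8 (119 against 90.6 units, 0.65), a methyltransferase that modifies the large ribosomal RNA and also acts in silencing of ribosomal DNA, Nop53 (173 against 141, 0.55), Rrp1b (160 against 134, 0.51) and Bop1 (968 against 810, 0.51). Under the scaling used here Rrp8 was the 1 member at least 1.5-fold higher. After quantile normalization, after loess and in the deposited value table it was at 0.53, 0.57 and 0.53, short of 1.5-fold, and Bop1 passed instead, at 0.69, 0.72 and 0.70. With the percentile over detected probes 5 members passed (Rrp8, Nop53, Rrp1b, Bop1 and Noc4l), with the median of detected probes Rrp8 and Nop53 did, and after normexp correction none did.

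The PeBoW complex, which is needed for processing of the large subunit precursor, joins Pes1, Bop1 and Wdr12. Its genes did not share a direction. Wdr12 was at -0.73 and Bop1 at 0.51, and both kept their sign under the other scalings and corrections. Pes1 had -0.21 at its brighter probe (432 against 594 units) and 0.41 at its dimmer probe (71.7 against 64.1).

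Of the remaining large subunit genes, Gnl3 (nucleostemin, a nucleolar GTPase of proliferating and stem cells) read 187 against 314 units (-0.49). Ebna1bp2 read 3238 against 5167 units (-0.42), with its other probes at -0.80 and 0.19. Nol12, an RNA-binding factor, had -0.34 and Nol9, a polynucleotide kinase of spacer processing, -0.18. Noc3l and Rrs1 had -0.16 each, Nop16 -0.080, Rrp1 -0.073, Nop2 (a cytosine methyltransferase) -0.040 and Noc2l -0.029. The last 6 of these changed sign under at least 1 other scaling or correction.

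Of 4 names that the rule took but whose role lies elsewhere or is not sure, only Nol4l was measured on both arrays (262 against 391 units, -0.32). Nol4, a gene of neural tissue, passed background on the SoNar-high array alone, at 1 of its 3 probes, with an approximate lower bound of 1.27-fold higher there. Utp14a likewise passed it on the SoNar-high array alone (37.8 against 36.0 units, approximate bound 1.21-fold). Nol7 passed it only on the SoNar-low array (23.2 against 50.01 units, approximate bound 1.39-fold higher there). A bound compares the bright value with the higher of the dim value and the lowest signal well above background on the dim array. The bounds are not strict, because a probe can read above that lowest signal without passing, as Utp25 did on the SoNar-low array (37.4 units). Another 7 genes, Nol3, Nol10, Nop9, Rrp12, Utp14b, Utp18 and Utp25, were not well above background on either array. Nol8 and Utp14b-ps1 had no probe named here.

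Members with several probes show how far probes of 1 gene differ. Of 69 member probes 56 were measured, and 45 of these were below 0. Among 8 members with more than 1 measured probe, 3 (Npm1, Ebna1bp2 and Pes1) had probes on both sides of 0. Probes of a gene can bind different transcripts or copies, and which probe is right was not tested.

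**Figure D4:**
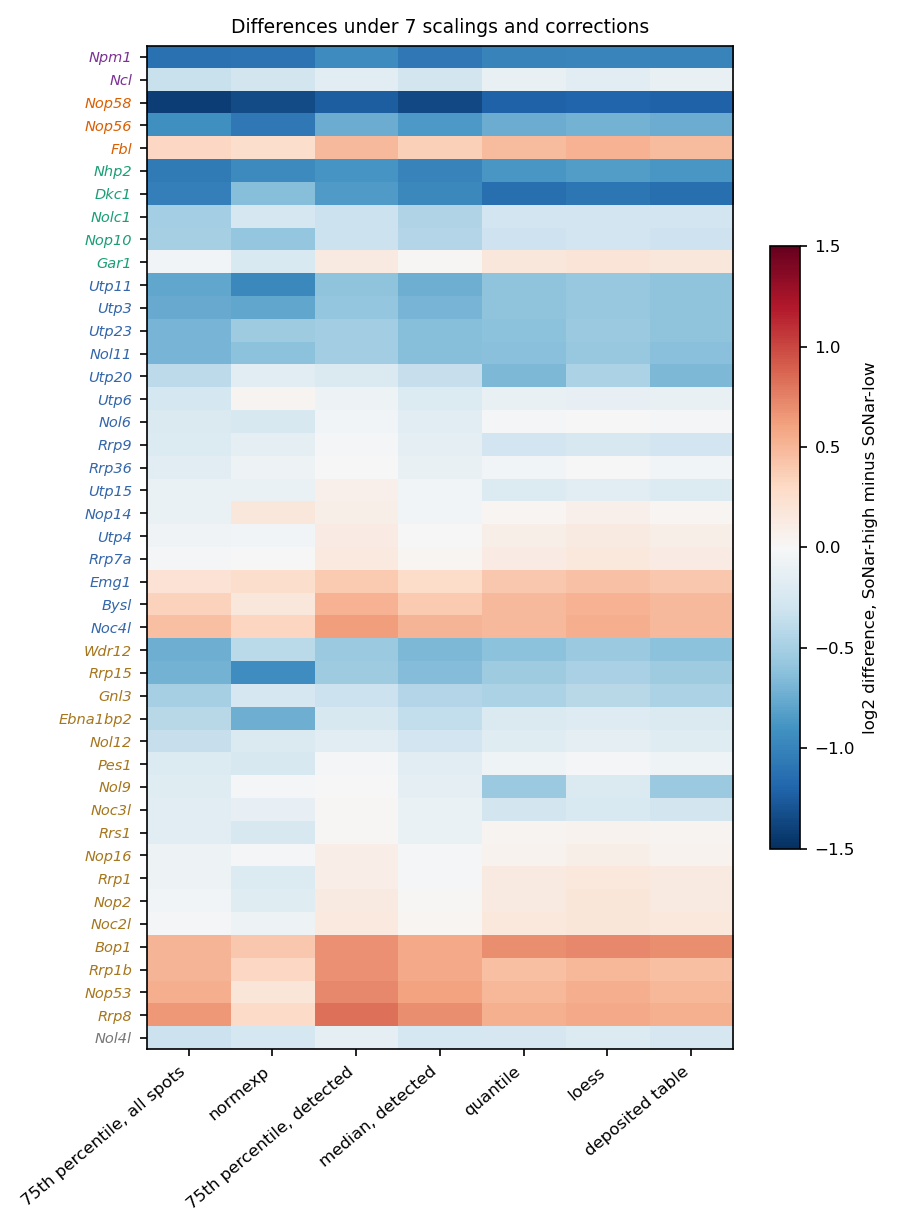
Log2 difference (colour, blue lower and red higher in SoNar-high cells) of each measured nucleolar factor in rows, under the scaling used in the text (first column) and 6 other scalings or corrections (other columns). Nop58, Npm1, Nhp2, Dkc1 and Nop56 are blue in every column, Bop1, Rrp1b, Nop53, Rrp8 and Fbl are red in every column, and members such as Gar1 and Nop2 change colour.

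A further list of 99 ribosome biogenesis genes that the name rule does not take had 92 measured. Of these, 5 (5.43%) were at least 2-fold lower and none at least 2-fold higher, against 4.44% and 5.28% of all measured genes. Below 0 were 69 (75%), against 55.8% of all genes, and the median was -0.38. At 1.5-fold, 28 (30.4%) were lower and 2 (2.17%) higher, against 17.7% and 13.8% of all genes. No genes of like signal were drawn for this list. The largest differences belonged to Lsg1, a GTPase of late large subunit maturation (648 against 1901 units, -1.30), Exosc3, a cap subunit of the RNA exosome (124 against 332, -1.17), Tsr2, a chaperone of a small subunit protein (71.8 against 174.8, -1.03), and Znhit6, an assembly factor of box C/D snoRNPs (247 against 602, -1.03). The median of this list was -0.20 with the percentile over detected probes and -0.21 after loess.

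Among genes upstream of ribosome synthesis, the transcription factor genes Mycn and Myc gave values of opposite sign. Mycn read 107 against 301 units (-1.25) and Myc 419 against 401 units (0.32). Mycn is also on the stem and progenitor list above, as 1 of its 3 genes at least 2-fold lower, so its value is used in both places. Polr1a, the largest subunit of RNA polymerase I, had -0.034, and Polr1b, its second subunit, 0.49 (404 against 343 units). Rrn3, which recruits the polymerase, had -0.31. Ubtf, the factor that marks active ribosomal DNA, had -0.052 at its brighter probe and 0.49 at its dimmer one.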

How the data were processed

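Total RNA was labelled with Cy3 and hybridised to 1 array per group, and groups follow the source label, per the labels. Spot intensity values (processed, median and background) were deposited by the authors as Agilent Feature Extraction output, already background-subtracted in the processed signal, per the file headers, with version 11.0.1.1 in the headers and 9.1 in the submitters' processing notes. The deposited value table, in log2 units by its range, has a centring that is not stated in the labels. Its columns share a median of 4.80 and correlate at 0.999 with their own arrays, and it served as an alternative. With 568 genes higher and 434 lower, it nearly repeats quantile normalization (567 and 434), so it is not a separate check.

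Control and outlier spots were left out. The log2 processed intensity minus the 75th percentile of that array's 43020 non-control spots was averaged per probe. Measured probes had over 50% of spots well above background and none saturated, on both arrays (15975 of 39420 probes). Probes were named by transcript accession through RefSeq GRCm38.p6 (27229 matched 1 gene, 12191 none); the array design refers to mm9. The brightest measured probe stood for a gene. Every member was accounted for, and values were given for each measured one. From the other biogenesis list the 4 with the largest absolute differences were named, with 6 upstream genes. The members, role groups and lists were chosen with earlier results of these data known, and the motifs after values were seen. The counting was tested on simulated data made from the SoNar-high array alone, with a constant offset and no change with brightness. That checks the arithmetic only, not the choice of scaling. The percentile over all spots was kept although under 50% of spots were above background, and the percentile over detected probes was an alternative. Python 3.11.15, statsmodels 0.14.6 and limma 3.58.1 were used. Alternatives were normexp (offset 50, on median signals), other scalings, quantile normalization, loess (span 0.3), no dim filter, a minimum signal of 100, other probe choices and thresholds of 1.5-fold and 3-fold. A value counted as moved beyond 0.16, the spot-to-spot SD, and a count beyond 1.5 times. With 1 array per group, the number of arrays limits all precision.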

Additional observations from a re-analysis of the deposited data

How the results depend on the processing

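No paired analysis was possible because each group has 1 array. At 1.5-fold, 1408 of all genes were higher and 1809 lower, with 1 and 11 nucleolar factors and 2 and 28 other biogenesis genes. At 3-fold, 146 of all genes were higher and 48 lower, and the lower counts of nucleolar factors and of other biogenesis genes were 0 each. With the 75th percentile over detected probes, 817 of all genes were higher and 227 lower (median 0.095), 1 nucleolar factor was lower (median -0.026) and 1 other biogenesis gene (median -0.20). Role medians were then -0.55 for Npm1 and Ncl, -0.74 for box C/D, -0.33 for box H/ACA, -0.0072 for the small subunit, 0.021 for the large subunit and -0.15 for Nol4l. After quantile normalization and in the deposited value table, 2 nucleolar factors were lower, with role medians of -0.55, -0.74, -0.31 and, for the large subunit, 0.044. After loess, 2 nucleolar factors and 3 other biogenesis genes (median -0.21) were lower, with role medians of -0.71 for box C/D, -0.29 for box H/ACA and 0.056 for the large subunit. After normexp, 251 of all genes were higher and 257 lower, with 2 other biogenesis genes lower, and scaling on the median of detected probes also left 2. Without a filter on dim probes, 2476 of the 20655 genes with a probe and 2 of 54 nucleolar factors were higher. The 2 were Nol4 (39.6 against 8.99 units), above background on the SoNar-high array alone, and Utp14b (17.8 against 8.34), above it on neither array. The median of the unsure role group was then 0.023. With signals of at least 100, 329 of all genes were higher and 38 nucleolar factors kept a value. Dkc1, at 74.6 units on the SoNar-high array, was not among them. With the dimmest probe the medians were -0.42 for Npm1 and Ncl and -0.22 for box C/D, and with the median over probes the latter was -0.57. Causes were not tested. Dim probes such as Nol9 and Utp20 lie near background, which limits their precision.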
